A study of Mus musculus with 8 samples.

Results

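The genes described here encode the proteins of the cytosolic ribosome, measured in the whole skin of mouse embryos of age E18.5 that were p63 null or wild type. Members were all probe sets with exactly 1 gene symbol, that symbol being Rpl or Rps followed by a number and at most 1 letter, or Rplp0, Rplp1, Rplp2 or Rpsa. The rule used names only, no measured value. It found 48 probe sets for 34 genes among the 24965 probe sets of the series, 47 of them (33 genes) among the 12488 of the A chip and 1 (Rpl27) among the 12477 of the B chip. All 48 matched the RefSeq genes of GRCm38.p6 by identifier. Another 38 probe sets of the A chip and 5 of the B chip carry a ribosomal protein symbol together with others. They were left out of the counts and are not named.

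Skin RNA of 2 null and 2 wild-type embryos, the offspring of p63 heterozygous parents, was hybridised to Affymetrix arrays in single colour. There are 8 arrays in all, 4 A chips and 4 B chips, and the labels do not say whether a replicate number means the same embryo on both. The labels do not describe the p63 allele or the sex of the embryos, and the tissue is whole skin, with epidermis, dermis and underlying layers together. The p63 gene (Trp63), a transcription factor of stratified epithelia, gave A-chip signals of 379.3 and 347.1 in wild type against 61.9 and 46.6 in the null, a log2 difference of -2.49 (SE 0.18, limma adjusted p = 1.13e-05). Whether its probes lie inside the mutated part of the gene was not analysed here.

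The cytosolic ribosome has a large 60S subunit, built from Rpl proteins, and a small 40S subunit, built from Rps proteins and Rpsa. The P-stalk proteins Rplp0, Rplp1 and Rplp2 sit on the large subunit and recruit elongation factors. The transcripts are among the most abundant of any growing cell, and most begin with a run of pyrimidines, the 5′ terminal oligopyrimidine (TOP) tract, through which growth signals control their translation. In skin, mouse mutations of Rps19 and Rps20 darken the skin, and the RefSeq table lists their names Dsk3 and Dsk4 (dark skin) as synonyms.

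Fewer ribosomal protein transcripts than transcripts at large were called between the genotypes, but the count rested on the scaling and on each of the 2 null arrays. Of the 47 A-chip probe sets, 27 (24 genes) were bright enough to be tested, and 4 of these (14.8%) fell in the null while 0 rose, with a limma adjusted p under 0.05. Over all 7453 tested probe sets of the chip 44.3% passed, 22.1% higher and 22.2% lower in the null. The 4 that fell were Rpl22, Rpl39l, Rpl13a and Rps19. With quantile normalization 11 of the 27 were lower, and the counts also moved when either null array was left out. At an unadjusted p under 0.05 the reported fit had 5 lower members, where 26.0% of all tested probe sets were lower at that level. The median log2 fold change (null minus wild type) of the 27 was -0.055, against 0.021 over all tested probe sets. The median absolute log2 fold change was 0.19 against 0.40. Leaving out null replicate 1 moved the members' median to 0.019, and leaving out null replicate 2 moved it to -0.13. The null arrays lay wholly on one side of the wild-type arrays for 15 of the 27 members (55.6%), in 12 of them below, where 73.9% of all tested probe sets did not overlap. With 1 probe set a gene, 4 of 24 genes (16.7%) fell against 45.2% of 5779 genes called in either direction. The members' values are MAS5 signals, the linear intensities of the array software, and those of different probe sets are not comparable as transcript levels.

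Rpl22, a large-subunit protein that binds RNA and is needed for the development of T cells, had the largest fall. Its probe set 92857_at read 677.0 and 672.9 in wild type against 357.1 and 267.0 in the null. Both null arrays were below both wild-type arrays, and the null mean was 46.2% of wild type. The log2 fold change was -1.10 (SE 0.15, 95% confidence interval -1.44 to -0.75, limma adjusted p = 0.000489). The second Rpl22 probe set, 92856_at, did not show a fall. It read 69.5 and 57.2 in wild type against 123.2 and 70.6 in the null, a log2 difference of 0.49 (SE 0.26, adjusted p = 0.161). The probe sets of this gene thus pointed in opposite directions, and in the dimmer one a single null array stood high.

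Rpl39l, a paralog of the large-subunit protein Rpl39 best known from the testis, read 603.7 and 649.7 in wild type against 349.7 and 302.0 in the null. The groups were far apart, with a null mean at 52.0% of wild type and a log2 difference of -0.92 (limma SE 0.13, adjusted p = 0.000583). Its parent gene Rpl39 was not measured at a usable level, since its A-chip probe set read 12.8, 7.8, 17.2 and 14.7 and stayed below the level for testing. Rpl13a, a large-subunit protein that also takes part in the silencing of inflammatory mRNAs when phosphorylated and released from the ribosome, read 1441.9 and 1521.0 in wild type against 990.4 and 1027.1 in the null. Replicates were close, and the fall was to 68.1% of wild type (log2 fold change -0.55, SE 0.11, adjusted p = 0.00368).

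Rps19, the small-subunit protein mutated in many families with Diamond-Blackfan anaemia, showed the smallest of the 4 falls. It read 6373.0 and 6273.1 in wild type against 4916.7 and 5089.5 in the null, with no overlap and a null mean at 79.1% of wild type. The log2 fold change was -0.34 (SE 0.11, adjusted p = 0.0360), and the call was lost under 6 of 14 other settings, with adjusted p-values up to 0.289. The calls of Rpl22 (92857_at), Rpl39l and Rpl13a held under all 14.

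**Figure D1:**
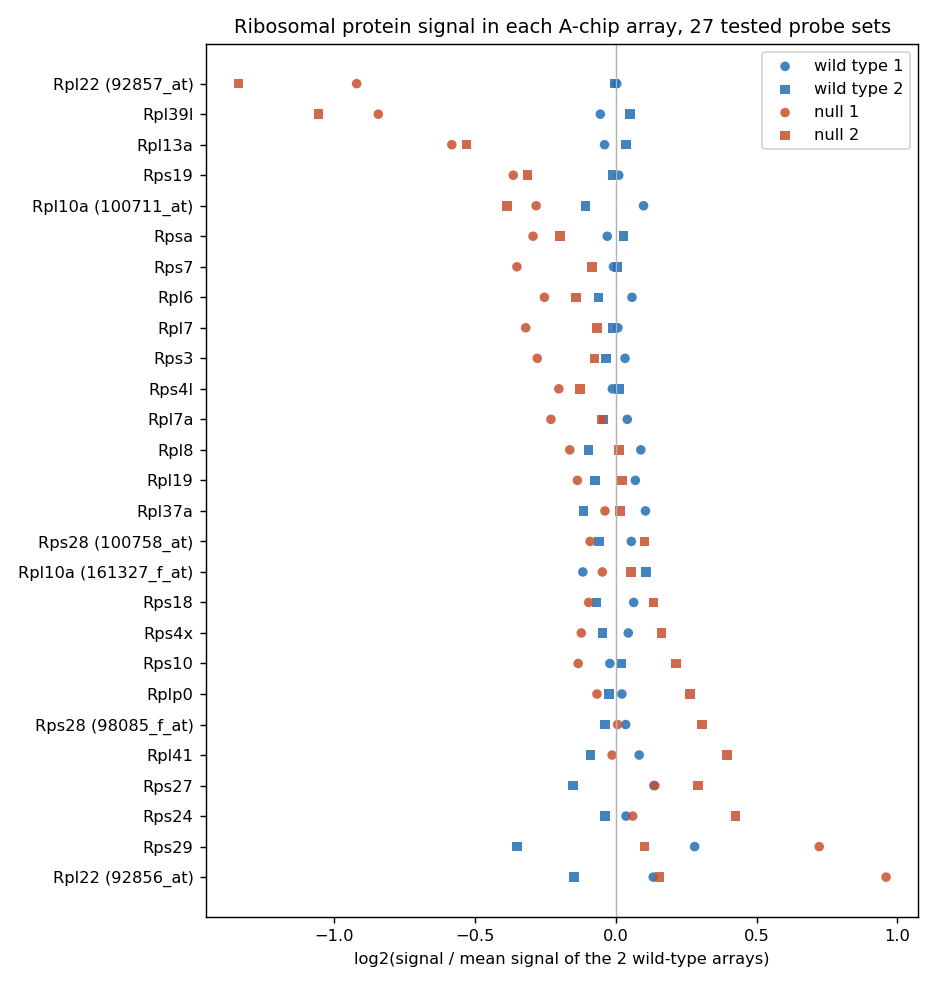
Each line is 1 tested ribosomal protein probe set of the A chip; the horizontal axis gives the log2 ratio of an array's signal to the mean of the 2 wild-type arrays, with circles for embryo 1 and squares for embryo 2 of wild type (blue) and null (orange). On the top 4 lines (Rpl22 92857_at, Rpl39l, Rpl13a, Rps19) both null arrays lie to the left of both wild-type arrays. Farther down the 2 null arrays part, with null 2 to the right of null 1 for 20 of the 21 members of mean signal 1000 or more.

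The start-site sequences of the 4 genes that fell and of 4 that were not called are shown for their pyrimidine runs, since a TOP tract at the first base is the feature most of these transcripts are known for. They come from the RefSeq promoter table of GRCm38.p6, which has an entry for 27 of the 34 genes. Each is 30 bases, 5′ to 3′ on the gene's strand, around the longest run of only C and T found within 50 bases of an annotated start, with that run in capitals. A run so marked need not be a TOP tract: counted from the start used in that table, it begins at -39 in Rpl22, -26 in Rpl39l, 2 in Rpl13a, -45 in Rps19, -14 in Rpl7a, -37 in Rps24, -2 in Rps18 and -3 in Rps10. The 4 that fell come first.
Rpl22 (chr4:152325679-152325708, + strand): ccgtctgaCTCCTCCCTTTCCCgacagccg
Rpl39l (chr16:10170191-10170220, + strand): aacacccactgCCTCTCCCTagctcccagg
Rpl13a (chr7:45128722-45128751, - strand): cgacaagaCCTCCTCCTTTCCCaggcggct
Rps19 (chr7:24884622-24884651, + strand): accccgtcgTTCCCTTTCCCCTggctggca
Rpl7a (chr2:26910788-26910817, + strand): cacaaTTCCCTCTTCTTTCTTTCTCCagca
Rps24 (chr14:24490710-24490739, + strand): gagcggTCCTCTTTTCCTCCTCTCCagctc
Rps18 (chr17:33955648-33955677, - strand): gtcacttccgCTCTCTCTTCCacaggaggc
Rps10 (chr17:27635227-27635256, - strand): ccgcgcacgCCCCTTCCTTTCCagcctccg
All 8 hold such a run, and Rpl39l has the shortest of the 8, with 9 bases against 11 to 21 in the others. The 4 uncalled genes shown do not stand for all. In the uncalled tested genes not shown, the longest run had 5 bases (Rps28) to 13 bases (Rpl37a and Rps7). A run of at least 8 pyrimidines within 50 bases of a start was found for 77.8% of the 27 member genes with an entry and for 39.3% of all 27025 genes of the table. It was present in 4 of the 4 genes that fell and in 15 of the 20 tested genes with an entry, so its presence did not separate the genes that fell from the rest. The stricter pattern of a TOP tract, a C at the start itself followed by at least 4 pyrimidines, was found in 5 of the 27 member genes against 3.01% of all genes. It was in 3 of the 20 tested genes and in 0 of the 4 that fell.

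Other promoter motifs were searched on both strands of the 300-base windows, which run from 250 bases before to 50 after a start. CCGGAAG, the core bound by ETS factors, was in a window of 40.7% of the member genes and 9.93% of all genes. AAGATGGC, the core bound by YY1, was in 14.8% and 3.19%. TATAAA was in 14.8% and 15.7%. The first motif ends with the letters that open the second, so matches can share bases. Of the 4 genes that fell, 1 had the ETS core, 2 the YY1 core and 1 TATAAA. The 150 bases before the outermost annotated start of Rpl39l (chr16:10170047-10170196, + strand) are shown with CCGGAAG in capitals, as the 1 gene of the 4 with that core.
Rpl39l: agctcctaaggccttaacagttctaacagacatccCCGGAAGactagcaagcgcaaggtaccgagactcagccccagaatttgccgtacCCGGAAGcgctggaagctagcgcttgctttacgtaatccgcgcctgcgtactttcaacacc
It holds the core at 2 places, on the gene's own strand. These matches describe the letters only.

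In the large subunit, 13 of the 20 A-chip probe sets were tested. Of these, 3 were lower and 0 higher, against 22.2% and 22.1% of all tested probe sets. The median log2 fold change of the 13 was -0.14. After the 3 that fell, Rpl10a, which lies on the stalk that releases transfer RNA, came nearest to the threshold. Its probe set 100711_at read 5770.2 and 5002.2 in wild type against 4430.6 and 4123.6 in the null, with no overlap (log2 difference -0.33, SE 0.12, adjusted p = 0.0546). Its second probe set, 161327_f_at, read 2642.6 and 3085.2 in wild type against 2772.5 and 2973.7 in the null, and the groups overlapped fully (0.0080, adjusted p = 0.964).

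Rpl6, of the large subunit, read 6282.4 and 5784.8 in wild type against 5065.7 and 5477.0 in the null (log2 difference -0.19, adjusted p = 0.209). Rpl7 (97695_s_at) read 7493.1 and 7406.5 against 5973.1 and 7116.2 (-0.19, adjusted p = 0.249). Rpl7a read 5074.3 and 4786.4 against 4206.3 and 4762.7 (-0.14, adjusted p = 0.374). In all of these both null arrays were below both wild-type arrays, but null 2 came close to wild type for Rpl7 and Rpl7a.

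Rpl8, Rpl19 and Rpl37a overlapped between the genotypes, with log2 differences of -0.072, -0.055 and -0.0069. Rpl41 (100213_f_at), the smallest ribosomal protein, was the brightest member. It read 9994.3 and 8866.3 in wild type against 9351.0 and 12397.6 in the null, so that null 1 lay between the wild-type arrays and null 2 above them (0.19, adjusted p = 0.338). The P-stalk was represented by Rplp0 alone, which read 8229.3 and 7974.7 in wild type against 7740.2 and 9728.2 in the null. The null arrays enclosed the wild-type arrays, and the log2 difference was 0.099 (SE 0.14, 95% confidence interval -0.21 to 0.41, adjusted p = 0.588). This value turned to -0.053 with quantile normalization and to -0.066 without null replicate 2. That of Rpl41 was -0.0096 without null replicate 2.

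In the small subunit, 13 of 26 probe sets were tested. Of these, 1 was lower (Rps19) and 0 higher, against 22.2% and 22.1% of all tested probe sets. The median log2 fold change of the 13 was 0.021. The subunits were not compared by a test. Rpsa, which doubles as a cell-surface laminin receptor, read 2820.2 and 2936.3 in wild type against 2349.7 and 2511.0 in the null, without overlap (-0.24, SE 0.11, adjusted p = 0.104). Rps7, another gene mutated in Diamond-Blackfan anaemia, read 6782.5 and 6853.3 against 5349.7 and 6435.9 (-0.22, adjusted p = 0.201). Rps3, which lines the entry of the mRNA channel and also has a DNA repair function, read 6888.1 and 6571.0 against 5551.1 and 6391.2 (-0.18, adjusted p = 0.274). These were below wild type in both null arrays and did not pass the test.

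Rps4l, a paralog of Rps4x, was read by a probe set whose suffix (s_at) marks probes shared with other transcripts, as for Rpl7. It gave 717.0 and 728.4 in wild type against 628.6 and 662.5 in the null (-0.16, adjusted p = 0.288). Rps4x itself, an X-linked gene, read 7550.5 and 7085.1 against 6727.0 and 8194.1, with the wild-type arrays inside the null range (0.022, adjusted p = 0.909). For Rps18 and Rps10 the null arrays likewise enclosed the wild-type arrays, with log2 differences of 0.021 and 0.041. Both bright Rps28 probe sets were uncalled, at 0.0074 (100758_at) and 0.16 (98085_f_at).

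Rps24 (97696_r_at), which like Rps19 is a Diamond-Blackfan gene, read 7851.3 and 7453.2 in wild type against 7981.8 and 10276.9 in the null. Both null arrays were above both wild-type arrays, null 1 by little and null 2 by much (0.24, SE 0.14, adjusted p = 0.198). The other Rps24 probe set, 93121_at, read 28.2 to 45.7 and was too dim to be tested. Rps27, a small-subunit protein, read 347.1 and 284.7 against 347.9 and 387.1, null 1 lying just above the higher wild-type array (0.21, adjusted p = 0.267). Rps29, at 62.8 and 40.6 against 85.3 and 55.5, was the dimmest tested member and its groups overlapped (0.36, SE 0.27, adjusted p = 0.303).

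**Figure D2:**
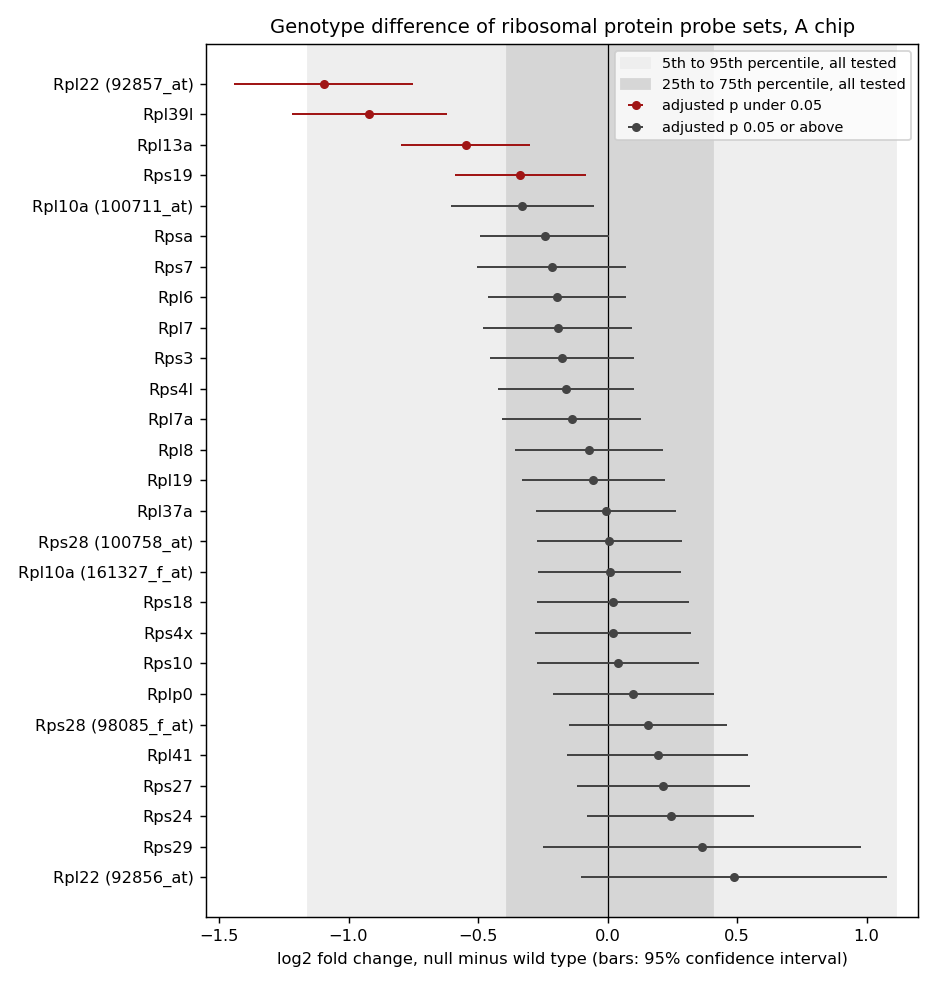
Points are log2 fold changes (null minus wild type) of the 27 tested probe sets with 95% confidence intervals, red where the limma adjusted p is under 0.05; the grey bands span the 5th to 95th (-1.16 to 1.11) and 25th to 75th (-0.39 to 0.41) percentiles of all 7453 tested probe sets. Apart from Rpl22 (92857_at), Rpl39l, Rpl13a and the dim second Rpl22 probe set, all members lie inside the narrower band.

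For the 23 members that were not called, log2 differences ran from -0.33 to 0.49. The 95% confidence interval lay within a 1.5-fold change in either direction for 20 of them. The exceptions were Rpl10a (100711_at), Rps29 and Rpl22 (92856_at). Real changes may have gone uncalled with 2 arrays a genotype, and the standard errors of the tested members ran from 0.11 to 0.27 on the log2 scale.

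The remaining 20 A-chip probe sets were too dim to be tested, with signals of 0.6 to 86.4. They leave 9 genes of the A chip without a tested probe set: Rpl32, Rpl35a, Rpl38, Rpl39, Rps13, Rps14, Rps15, Rps20 and Rps27l. Several of the dim probe sets belong to genes that a second probe set read brightly, such as Rps4x, with 4 dim probe sets (2.9 to 37.7) beside 1 of 6727.0 to 8194.1. A low signal of such a probe set does not measure a low transcript level. Of the 20, the Rpl7 probe set 97697_at passed when the filter on dim probe sets was dropped (1.7 and 1.9 in wild type, 13.6 and 14.6 in the null, adjusted p = 0.00932), opposite to the bright Rpl7 probe set. The Rps27l probe set, for a p53-induced paralog of Rps27, read at most 5.8. The only B-chip member, Rpl27, read 30.4 and 71.5 in wild type against 101.2 and 135.2 in the null, also below the level for testing.

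The 2 null arrays of the A chip disagreed with each other over the bright members. Of the 21 tested members with a mean signal of at least 1000, null 2 was above null 1 in 20, with a median ratio of 1.14, while the median ratio of wild type 2 to wild type 1 was 0.95. Null 1 was below both wild-type arrays in 16 of the 21, whereas null 2 was below both in 9 and above both in 8. The ratio was not particular to ribosomal proteins. Its median was 1.05 over all 914 tested probe sets with a mean signal of at least 1000. Over the 139 with at least 4000, 17 of them members, it was 1.19, against 0.98 for signals of 250 to 500. The CreX 3' spike, a control transcript added to each sample, read 6420 in null 2 and 3334 to 3837 in the other A-chip arrays. The part of these values in the results for the members was not tested.

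**Figure D3:**
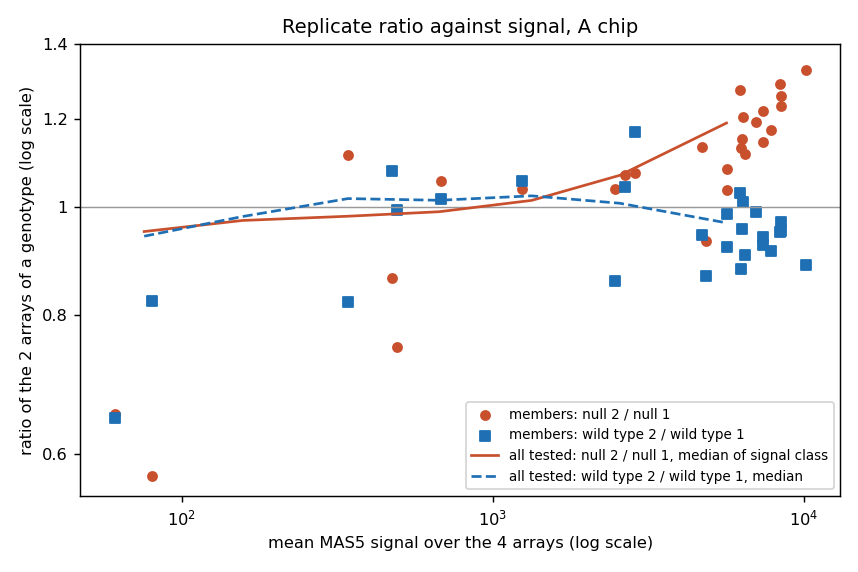
The horizontal axis is the mean MAS5 signal of a probe set over the 4 A-chip arrays (log scale) and the vertical axis the ratio of the 2 arrays of a genotype (log scale); points are the 27 tested members and lines the medians of all tested probe sets in 7 signal classes. The null ratio climbs with signal, to 1.19 in the brightest class, and the bright members follow it, while the wild-type ratio stays near 0.97 there.

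The count of calls depended on how this was handled. With quantile normalization, which forces the arrays onto 1 distribution of signals, 11 of the 27 members (40.7%) were lower and 0 higher, where 44.5% of all tested probe sets were called and 22.1% were lower under the same setting. Beyond the 4 named above these were Rpl10a (100711_at), Rps7, Rpl6, Rpsa, Rpl7a, Rpl7 and Rps3, with log2 fold changes from -0.44 to -0.24. Their names were taken after the values were seen. Without null replicate 2, 10 members were lower and 1 (Rpl22 92856_at) higher, against 20.1% of all probe sets lower. Without null replicate 1, 5 were lower and 5 higher, against 23.2% and 21.1% of all probe sets, the higher ones being Rpl41, Rplp0, Rps24, Rps28 (98085_f_at) and Rps10. The share of at least 1.5-fold differences was 33.6% over all tested probe sets, and 2 of the 27 members had one. Among the 914 probe sets with a mean signal of at least 1000, 54.0% were called and 23.6% were lower, and 2 of the 21 members of that brightness were lower. The share called was smaller, 38.1%, among the 139 probe sets with a mean signal of at least 4000, a class that held 17 of the 21 members.

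**Figure D4:**
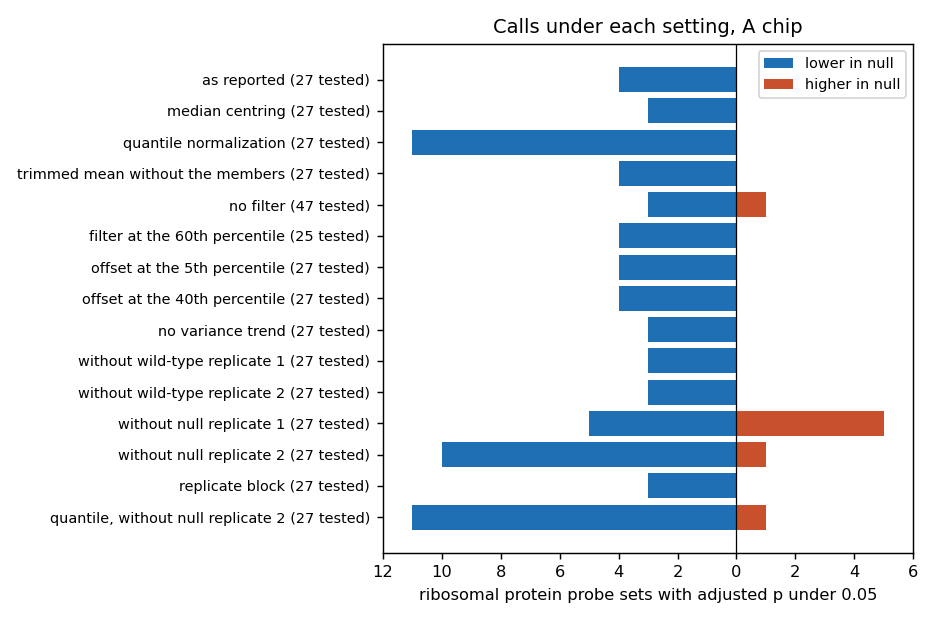
Bars count the A-chip members with a limma adjusted p under 0.05, to the left where lower in the null and to the right where higher, for each setting of the analysis with the number of members tested. The count of lower members is 10 or 11 with quantile normalization or without null replicate 2 and 3 to 5 under the other settings drawn.

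Genes that build or serve the ribosome were read beside its structural proteins, each gene by its brightest tested probe set on the A chip. Of 39 tested ribosome biogenesis genes 24 fell and 0 rose (61.5% called, against 45.2% of all genes), with a median log2 fold change of -0.64 against 0.012 over all 5779 genes. Brix1, a large-subunit assembly factor, read 718.0 and 644.0 in wild type against 134.0 and 198.3 in the null (-1.98, adjusted p = 4.10e-05). Nhp2, a protein of the RNA-guided pseudouridylation machinery, fell from 1638 to 572 on average (-1.50, adjusted p = 1.33e-05). Mphosph10, which acts in small-subunit RNA processing, and Nop58, a core protein of small nucleolar RNA particles, fell by 1.33 and 1.27 on the log2 scale.

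Translation initiation factors fell in 13 of 26 cases and rose in 2 (57.7% called against 45.2% of all genes), with a median of -0.41. Eif2s2, a subunit of the factor that delivers the initiator transfer RNA, Eif1a, Eif3m and Eif5 led the falls, with log2 fold changes between -1.23 and -0.96. The 2 rises were lost with median centring, with no filter, with no variance trend and without wild-type replicate 1 or null replicate 2, and 1 gene rose without wild-type replicate 2. Of 8 elongation and termination factors 4 fell and 1 rose (62.5% called against 45.2% of all genes, median -0.29). Their median ran from -0.31 to -0.26 when 1 array was left out. Eef1a2, the form of elongation factor 1A of muscle and nerve, rose from 165.0 and 136.2 to 430.0 and 652.1 (1.74, adjusted p = 0.000165). Eef1d, Gspt1 and Abce1 fell by 0.78, 0.74 and 0.60. Eef1a1, the widely expressed form, was chosen with its value known and differed by 0.15 on the log2 scale (adjusted p = 0.399).

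Genes other than ribosomal protein genes whose mRNAs are known to carry a TOP tract fell in 10 of 16 cases and rose in 0, with a median of -0.49. Called genes made up 62.5% of this list, against 45.2% of all genes. Some of the 16 are also in the lists above. Without null replicate 1, 3 of them rose. Cnbp, Npm1, Gas5 and Nap1l1 fell, with log2 fold changes of -1.21, -0.87, -0.86 and -0.81. Of 19 aminoacyl-tRNA synthetases, which charge transfer RNA, 6 fell and 1 rose (36.8% called against 45.2% of all genes, median -0.23). The median was -0.016 without null replicate 2 and -0.40 without null replicate 1. Without wild-type replicate 2 the counts were 3 and 0, without wild-type replicate 1 there were 2 rises, and without null replicate 2 there were 0. Hars, Rars, Qars and Tars fell by 0.99, 0.97, 0.80 and 0.63.

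Mitochondrial ribosomal proteins, which build the separate ribosome of that organelle, rose in 10 and fell in 5 of 57 cases. The share called was 26.3%, against 45.2% of all genes, and the median was -0.054. Mrps36, Mrpl34 and Mrpl38 rose, with log2 fold changes of 1.11, 0.79 and 0.79, and Mrps22 fell by 0.71. Without wild-type replicate 1 these counts were 5 and 3, without wild-type replicate 2 they were 5 and 1, and without null replicate 1 there were 6 rises. Ribosome-associated genes outside the naming rule fell in 4 of 5 cases, where 45.2% of all genes were called in either direction. They were Nsa2 (-0.94), Rpl7l1 (-0.84), Rsl24d1 (-0.63) and Rsl1d1 (-0.37), which are assembly factors or paralogs. A B-chip probe set of Nsa2 was not called (0.22). The 1 that was not called was Rps3a1, a structural protein whose symbol the rule leaves out (-0.11, adjusted p = 0.506). With quantile normalization all 5 were lower, Rps3a1 included. Of 16 growth regulators 3 rose and 4 fell, 43.8% against 45.2% of all genes, and their median was 0.044. Without wild-type replicate 1 there was 1 rise and the median was 0.12, and without wild-type replicate 2 there were 2 falls and it was -0.025. Mycn and Mycl, relatives of the transcription factor Myc, fell by 2.70 and 1.63, Mxi1, a Myc antagonist, fell by 0.81, and Mxd4, another antagonist, rose by 0.75. Cell cycle genes fell in 17 of 19 cases (89.5% called against 45.2% of all genes), with a median of -0.81. Prim1, Bub1, Kif11 and Stmn1 led the falls (-1.95, -1.59, -1.40 and -1.38).

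**Figure D5:**
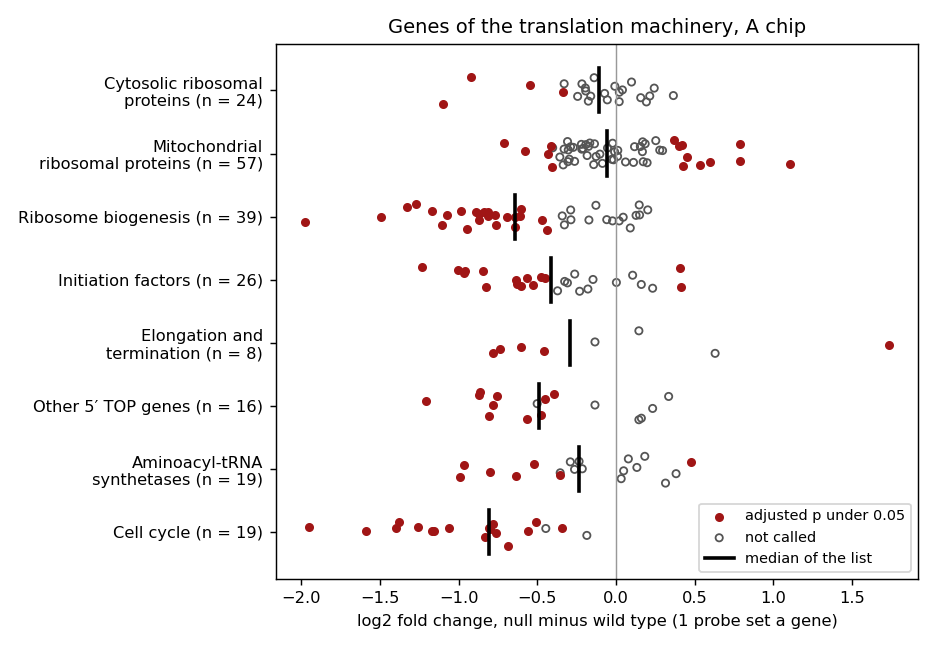
Each point is 1 gene of the A chip by its brightest tested probe set, placed by its log2 fold change (null minus wild type), filled where the limma adjusted p is under 0.05; black bars are list medians. Cytosolic ribosomal proteins (24 genes, median -0.11) and mitochondrial ones (57 genes, median -0.054) are centred near 0, and ribosome biogenesis (39 genes, median -0.64) and cell cycle genes (19 genes, median -0.81) to the left of it. Some genes are in more than 1 list.

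On the B chip, where 32.1% of 5345 genes were called, 4 of 10 ribosome biogenesis genes fell and 1 rose. Wdr12, Ubtf, Dkc1 and Nolc1 fell by 0.90, 0.86, 0.83 and 0.50, and Imp4 rose by 0.78, while the A-chip probe sets of Ubtf and Imp4 were not called (-0.13 and 0.046). Of 8 initiation factors on that chip limma called 0 (median -0.20), while 2 were lower and 1 higher at an unadjusted p under 0.05. Of 4 elongation and termination genes 3 fell (median -0.59), and of 2 aminoacyl-tRNA synthetases 0 were called, also at an unadjusted p under 0.05. Of 17 mitochondrial ribosomal proteins 2 fell and 2 rose.

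Transcripts of cell type markers differed between the genotypes beside all of these values. The summed signal of 8 basal keratinocyte genes on the A chip was 11311 to 11427 in wild type and 933 to 1233 in the null, with 7 of the 8 lower. That of 11 suprabasal genes was 36587 to 38270 against 8908 to 10980, with 10 lower and a median log2 fold change of -4.31. The remaining suprabasal gene was higher at an unadjusted limma p under 0.05, and was called higher with quantile normalization. The sum of 16 skeletal muscle genes was 13004 to 13471 against 28739 to 31303, with all 16 higher, that of 10 adipocyte genes 9691 to 10268 against 21569 to 23686, with 8 higher, and that of 12 leukocyte genes 4104 to 4364 against 10801 to 11417, with 11 higher. Of 6 erythroid genes 3 were higher (50% called), near the 45.2% called over all genes of the A chip. Their median log2 fold change was 0.40, and 0.29 without wild-type replicate 2. The shares called in the other lists were 87.5% (basal), 90.9% (suprabasal), 100% (muscle), 80% (adipocyte) and 91.7% (leukocyte). In whole skin, fewer cells of a type and less RNA per cell cannot be told apart. The beta-actin control, whose 3' over 5' signal tracks how complete the labelled RNA is, gave ratios of 1.63 and 1.69 in wild type against 1.27 in each null array. The same ratio for Gapdh was 1.47 and 2.46 in wild type against 1.25 and 1.45 in the null, so that wild type 1 and null 2 were nearly equal. The part of cell composition and of RNA quality in the members' values was not tested.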

How the data were processed

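Total RNA of whole skin was labelled with biotin, per the labels' protocols. The submitters' processing notes name MAS5, and the deposited values are linear intensities. No source used here gives the MAS5 version, detection calls or a genome build. A 2% trimmed mean of 250.1 to 250.2 in each A chip and 500.1 in each B chip shows that they had been scaled. Their number limits the precision.

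Arrays were grouped by title and each chip was analysed alone. Signals were set to 1 trimmed mean, the 20th percentile of the chip (12.9 and 54.3) was added, and log2 was taken, so fold changes of dim probe sets are understated. The 66 control probe sets and those at or below the 40th percentile of mean log2 value were left out, leaving 7453 and 7446. Limma 3.58.1 in R 4.3.3 (lmFit, eBayes with intensity trend, two-sided) compared null with wild type, with Benjamini-Hochberg adjustment over the chip and a threshold of 0.05. Every adjusted p comes from that fit unless a setting is named. The fit was tested on simulated data.

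Gene names came from the array's GEO annotation, some of it outdated: 10855, 396 and 1237 A-chip probe sets had 1, several or no symbol, and 10603, 178 and 1696 on the B chip. Probes can bind pseudogenes and paralogs of ribosomal protein genes. The p-values rest on the spread of 2 embryos per genotype. Members, lists and tests were chosen with earlier results of these data known. Genes named were the called members, the 4 brightest, genes with differing probe sets, paralogs and P-stalk genes, and up to 4 called genes of largest change per list; the other members were added for completeness. Alternatives were other scalings, filters, offsets, no variance trend, a replicate block, 1 probe set a gene and leaving out each array.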

Additional observations from a re-analysis of the deposited data

How the results depend on the processing

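Rpl22 (92857_at), Rpl39l and Rpl13a stayed lower and called in every alternative run, and Rps19 stayed lower. The call of Rps19 was lost with median centring (adjusted p = 0.0818), no filter (0.0902), no variance trend (0.0841), the replicate block (0.0983) and without either wild-type array (0.289 and 0.280). The count of lower members, 4 as reported, was 11 with quantile normalization, 7 when 33 tested probe sets with several symbols were added, and 2 among members with a mean signal of at least 1000; leaving out 1 array gave 3 to 10, and quantile normalization without null replicate 2 gave 11. The count of higher members, 0 as reported, was 1 with no filter and 1 with the probe sets of several symbols; leaving out 1 array gave 0 to 5, and 1 with quantile normalization without null replicate 2. The median log2 fold change of the members, -0.055, ranged from -0.13 to 0.019 when 1 array was left out. That of Rplp0 became -0.053 with quantile normalization and -0.066 to 0.26 with 1 array left out (-0.061 with quantile normalization and without null replicate 2), and that of Rpl41 ran from -0.0096 to 0.40. Samples share only a replicate number: deviations of same-numbered arrays correlated at 0.039 (A chip) and -0.046 (B chip), and with the number as a block 3 members were lower and 0 higher. The alternatives on several symbols, bright members, quantile normalization without an array and list counts were chosen after seeing the data. The dim probe sets of 9 A-chip genes and the B-chip member limit what can be said of those genes.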

Other observations

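The 33 tested A-chip probe sets that carry a ribosomal protein symbol together with other symbols were tested alike. Of them 3 fell and 1 rose in limma, where 44.3% of all tested A-chip probe sets were called in either direction. Their median log2 difference was -0.032, and null 2 was above null 1 in 26. The 3' probe set of 18S ribosomal RNA, the RNA of the small subunit, read 44.4 and 39.1 in wild type against 45.2 and 52.9 in the null on the A chip, and 109.8 and 126.0 against 179.7 and 251.0 on the B chip. The 5' and middle probe sets of this RNA read 1.6 to 13.2 on the A chip and 17.4 to 62.0 on the B chip. All these A-chip values were within the range of the members too dim to be tested (up to 86.4). These were control probe sets and were not tested.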
